A study of Mus musculus with 2 samples.

Results

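The clustered protocadherins are cell adhesion genes that lie side by side on mouse chromosome 18 in 3 arrays, Pcdha, Pcdhb and Pcdhg. Members were the protein-coding genes of GENCODE M21 (mm10) whose symbols follow the Pcdha, Pcdhb, Pcdhga, Pcdhgb or C-type pattern. The rule found 57 of 21938 protein-coding genes. The Pcdha array held 14 members over 257 kb (chr18:36930184-37187661), the Pcdhb array 22 over 260 kb (chr18:37264938-37524479) and the Pcdhg array 21 over 180 kb (chr18:37661793-37841873). By type these were 12 alpha, 22 beta, 12 gamma A, 6 gamma B and 5 C-type members. Peaks and footprints were read over the arrays widened by 100 kb, which merged into 1 window of 1112 kb (chr18:36830184-37941873).

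Chromatin accessibility was measured by DNase-seq, in which DNase I cuts open DNA in nuclei and the cut ends are sequenced. The samples were whole spleen of male B6CASTF1/J mice, an F1 hybrid strain, aged 14 days. There was 1 group of 2 libraries and no contrast. Replicate 1 was pooled from 3 males and replicate 2 came from 1 male. The labels number them as biological replicates 1 and 2 but give both the same donor entry. Whether they share animals is not stated, so spread between them may be partly technical.

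Each variable exon of a protocadherin array starts at a promoter of its own. In Pcdha and Pcdhg the variable exons are spliced to shared constant exons, while each Pcdhb gene is a single exon. Individual neurons choose a few alpha, beta and gamma promoters at random, and the combination of surface proteins lets a neuron tell its own branches from those of others. Choice involves CTCF and cohesin, which bring promoters to distal enhancers, among them a site called HS5-1 downstream of the last Pcdha exon. A block of sites downstream of Pcdhg is needed for Pcdhb expression in mouse. DNA methylation and the chromatin protein SMCHD1 are known to silence many of the promoters, and the C-type genes are used more uniformly than the others.

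Only 1 of the 57 members, Pcdhgc3, had an open promoter by the strict peak list, and this was so in each library. A promoter was the 1000 bases either side of any annotated start site. A strict peak is one in the shorter of the 2 peak lists that each library came with, and the longer one is called the larger list. How the lists differ is not stated, and strict here means only fewer bases in total. The lists are not nested. In replicate 2 the strict peak at chr18:37934927-37935092 (signal 0.919) is not in the larger list, while a larger-list peak at Pcdhgb6 that is not strict has 0.960. The single member makes 1.75% of the members in both libraries together, against 51.1% of all protein-coding genes. In replicate 1 alone it was 1 member against 56.7% of all genes, and in replicate 2 alone 1 member against 51.4%. The larger list added few. It held a promoter peak in both libraries for 2 members, against 56.1% of all genes. It held one for 6 members in replicate 1, against 61.5% of all genes, and for 2 members in replicate 2, against 57.1%. In a bulk sample, a site open in fewer cells and a site less open in each cell cannot be told apart.

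The deposited false discovery rates (FDR) list every base whose cut rate passed 0.05, so they reach below either peak list. By that measure 2 members had a listed base at the promoter in both libraries, against 56.9% of all genes. The counts were 6 members in replicate 1, against 62.4% of all genes, and 2 in replicate 2, against 58.2%. At the other 51 members no promoter base was listed in either library, and these had no promoter peak in either list.

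**Figure D1:**
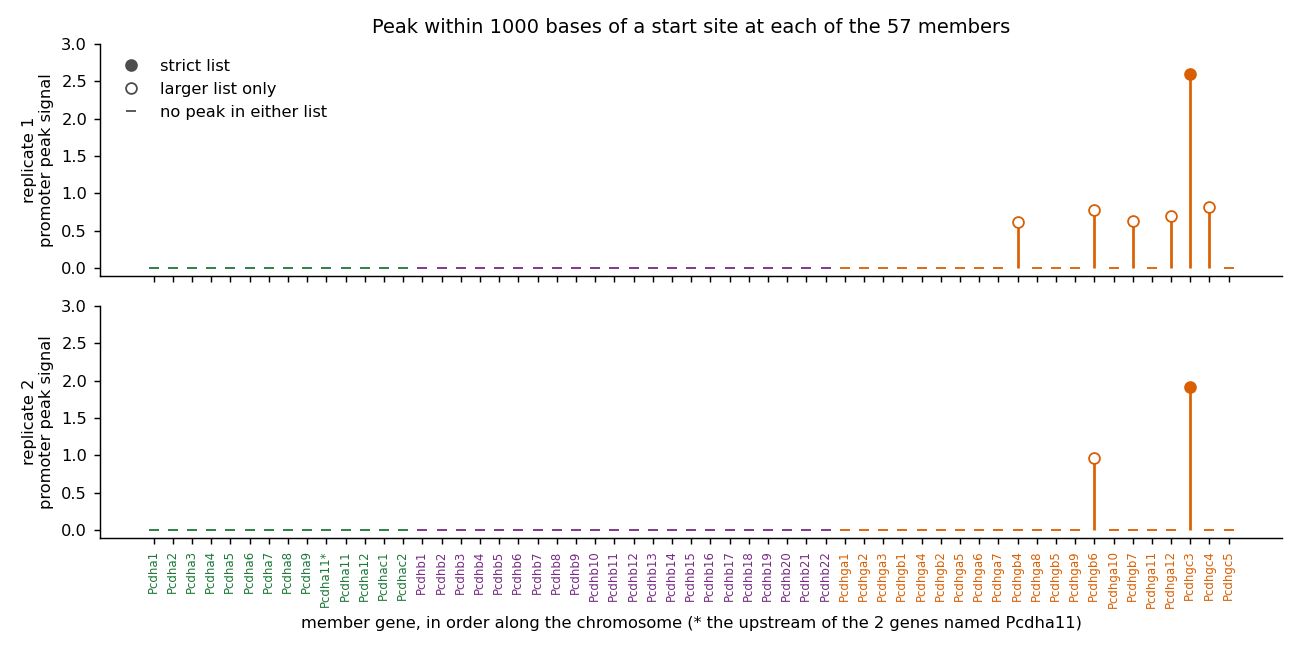
Signal of the highest peak within 1000 bases of a start site (y axis, the authors' signal value, scale not stated) at each of the 57 members in chromosomal order (x axis), replicate 1 above replicate 2. Filled points are strict peaks, open points are peaks of the larger list only, dashes are members with neither. Pcdhgc3 stands at 2.59 and 1.92, and every other point lies in Pcdhg below 1.

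Pcdhgc3 (ENSMUSG00000102918) is a C-type gene of the gamma array. Its peak covered the start site and 5′ UTR at chr18:37806241-37806440 in replicate 1 and chr18:37806268-37806450 in replicate 2. The peak signal was 2.59 in replicate 1 and 1.92 in replicate 2. These values sat at percentile 68.7 and percentile 52.8 of all strict peaks of their libraries, at promoters or elsewhere, so the peak was of middling height among them. It was low for a promoter peak: protein-coding genes with a strict promoter peak had median signals of 7.03 in replicate 1 and 4.79 in replicate 2. The lowest FDR at the promoter was 5.69e-13 in replicate 1 and 2.96e-06 in replicate 2. The peak held 2 footprints in replicate 1 and 1 in replicate 2, a footprint being a short stretch shielded from cutting. The noncoding antisense gene BC037039 (chr18:37805718-37807922) runs through the same site, but its own start lies 1482 bases from the replicate 1 peak and 1472 bases from the replicate 2 peak. In DNA composition the Pcdhgc3 promoter had the highest CpG observed over expected ratio of the 57 members, 0.82, where the members ranged down to 0.138 at Pcdhb9. The next highest, Pcdhga11 with 0.767, had no promoter peak or listed base in either library. Pcdhgb6, with larger-list peaks in both libraries, had 0.501.

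The other C-type members showed less. Pcdhgc4 had a peak only in the larger list of replicate 1, with signal 0.823 and a lowest FDR of 0.00129, and no listed base in replicate 2. Pcdhgc5 had no peak and no listed base in either library. The same was true of Pcdhac1 and Pcdhac2, the C-type genes at the end of the alpha array. Sequence at these promoters was nearly all unique: the share of 32-base words that occur once in the genome was 100% at Pcdhac1, Pcdhac2, Pcdhgc3 and Pcdhgc4 and 99.2% at Pcdhgc5.

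The remaining weak promoter peaks all lay in the gamma array. Pcdhgb6, a gamma B gene, was the only member besides Pcdhgc3 with a peak in the larger lists of both libraries. Its signal was 0.772 in replicate 1 and 0.960 in replicate 2, with lowest FDRs of 0.00288 and 0.0319. Pcdhga12, Pcdhgb7 and Pcdhgb4 had a larger-list peak in replicate 1 only, at signals of 0.697, 0.638 and 0.621. In replicate 1 the 5 members with a larger-list peak only thus ranged between 0.621 and 0.823, all below Pcdhgc3. The first 9 gamma members in array order, Pcdhga1 to Pcdhga7, had no promoter peak in any list, and the 6 members with one were among the last 12. Replicate 2 also had a larger-list peak of signal 0.846 at chr18:37761618-37761715, 86 bases from the start of Pcdhgb8, which the annotation counts as a pseudogene and which is no member.

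All 22 Pcdhb genes were without a peak in either list of either library. Over the whole 260 kb array there was no peak, no footprint and no base listed under an FDR of 0.05 in replicate 1 or replicate 2. The 100 kb upstream of Pcdha was equally empty. The median beta member lay 144 kb from the nearest strict peak in replicate 1 and 216 kb in replicate 2.

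All 14 Pcdha members likewise lacked a promoter peak in every list. The annotation gives the symbol Pcdha11 to 2 of them; RefSeq (GRCm38.p6) names the upstream one, starting at 37005203, Pcdha10. The array was not wholly blank: replicate 1 had 1 larger-list peak, a 27-base stretch of signal 0.210 that was 77.8% repeat sequence. Replicate 2 had 2, neither seen in replicate 1. One lay in the coding exon of Pcdha9 (signal 0.317, 1941 bases from its start). The other lay in that of the upstream Pcdha11 gene (signal 0.512, 2023 bases from its start) and held the only footprint of the array. None of the 3 was in a strict list.

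Seen as distances between neighbouring strict peaks, the alpha and beta arrays fell in long stretches without a strict peak. In replicate 2 a single gap of 842 kb (chr18:36802041-37644140) held the start sites of all 36 Pcdha and Pcdhb members and of 40 protein-coding genes in all. Of 28385 gaps in that library, 596 (2.10%) were as long and 18 held as many start sites. Larger-list peaks of replicate 2 broke this gap, leaving among others gaps of 198 kb with 9 member starts and 426 kb with 22. In replicate 1 the stretch was split by 1 weak peak. A gap of 415 kb held the 14 Pcdha starts and a gap of 426 kb the 22 Pcdhb starts. Of 47738 gaps in replicate 1, 1016 (2.13%) were as long as the first and 63 held as many start sites. For the second gap these counts were 993 (2.08%) and 47. The map of peaks by position shows these stretches beside the occupied end of the window.

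**Figure D2:**
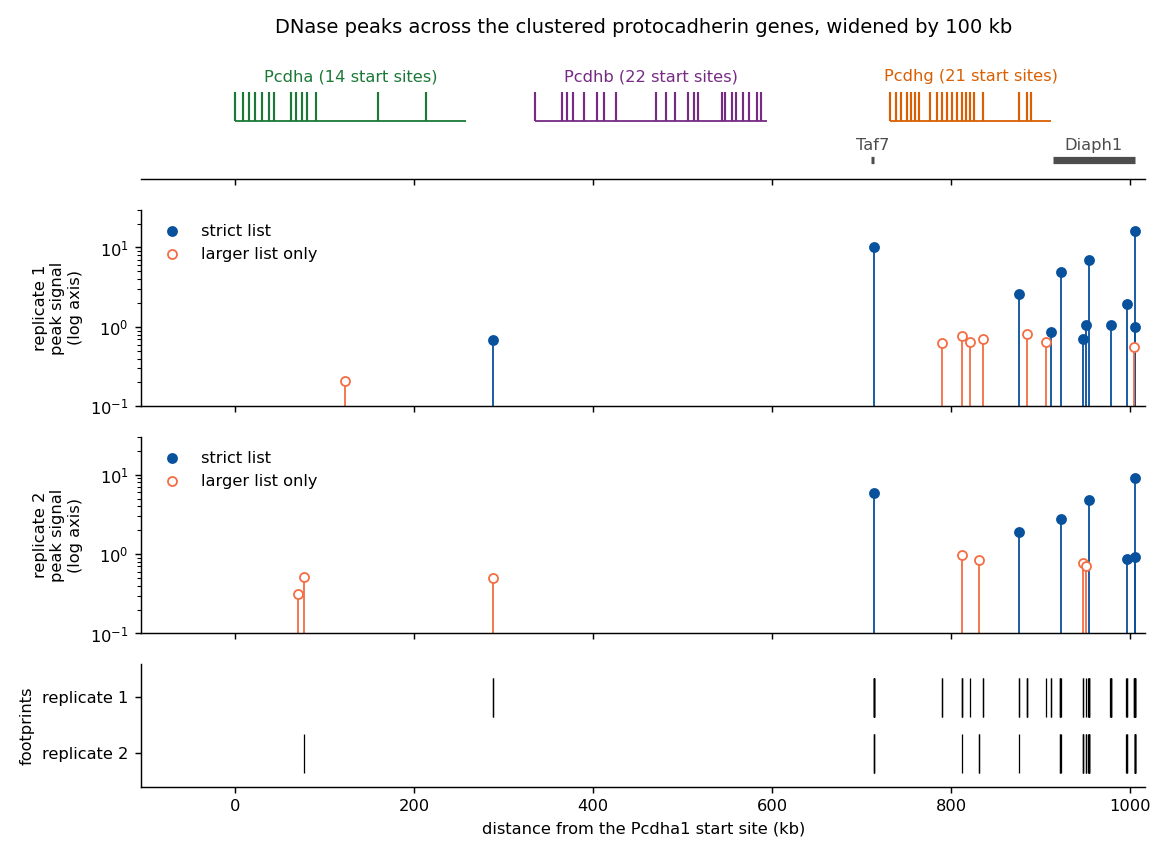
Positions of the members' start sites (top), peak signal on a log axis in replicate 1 and replicate 2 (middle) and footprints (bottom) by distance from the Pcdha1 start site in kb. Filled points are strict peaks and open points larger-list peaks that are not strict. The 260 kb of Pcdhb hold nothing in either library, and most strict peaks sit at Taf7, Pcdhgc3 and inside Diaph1.

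The weak peak that split the gap lay between the alpha and beta arrays, 30.6 kb past the end of Pcdha and 46.5 kb before Pcdhb, in no exon. It was strict in replicate 1 (chr18:37218281-37218440, signal 0.688, 2 footprints), and the lowest FDR between the arrays was 4.26e-06. In replicate 2 it appeared in the larger list only (chr18:37218312-37218408, signal 0.504) with no footprint. The signal of 0.688 was at percentile 13.6 of the strict peaks of replicate 1. The peak held 1 GC box (GGGCGG, either strand), and a match to the CTCF consensus overlapped its downstream edge. It lies on the side of Pcdha where HS5-1 is known, but whether it is that enhancer was not tested.

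The other strict peaks near the members lay mainly at or in neighbouring genes. Taf7, which encodes a subunit of the general transcription factor TFIID and lies between Pcdhb and Pcdhg, had a promoter signal of 10.03 in replicate 1 and 5.86 in replicate 2. Its peak ended 17453 bases from the Pcdhga1 start in replicate 1. Slc25a2, the mitochondrial carrier gene beside it, had no promoter peak. Diaph1, a formin that nucleates actin filaments and runs toward Pcdhg on the opposite strand, had a promoter signal of 16.2 in replicate 1 and 9.11 in replicate 2. A further promoter-flanking peak of Diaph1 had 0.990 and 0.919. The 3 readthrough gene models that span the arrays, Gm42416, Gm37013 and Gm37388, had no promoter peak.

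The 100 kb downstream of Pcdhg held 8 strict peaks in replicate 1 and 5 in replicate 2. This is 66.7% and 71.4% of the strict peaks of the window. Per length it was 4.52 and 4.73 times the genome average. All of them lay in or at Diaph1, whose body covers most of that stretch, and it is also where the enhancer block for Pcdhb is known. The strongest away from the promoter was at chr18:37883561-37883720, intronic, 41.7 kb past the Pcdhg end, with signal 6.91 in replicate 1 and 4.85 in replicate 2. Next came chr18:37852221-37852400, intronic, 10.3 kb past the end, with 4.88 in replicate 1 and 2.79 in replicate 2. That one lay 1007 bases from an alternative Diaph1 start in replicate 1 and 987 bases in replicate 2, at the edge of the promoter window. Another intronic peak shared by both strict lists (chr18:37925961-37926160 in replicate 1) had 1.95 and 0.862. A pair of weaker intronic peaks was strict in replicate 1 only, with signals 1.05 and 0.705, and stood in the larger list of replicate 2 at 0.708 and 0.765. One at chr18:37908181-37908310 (signal 1.07) was found in replicate 1 only. Which gene any of these sites acts on was not measured.

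Inside the gamma array and away from any start site there was 1 strict peak, in replicate 1 (chr18:37841405-37841522, signal 0.873). It lay in the UTR of the last constant exon, which all 21 gamma members share, and a footprint there overlapped a CTCF consensus match. Replicate 2 had no peak of either list at that place. An intronic larger-list peak between constant exons, at chr18:37835728-37835851 with signal 0.646, was also confined to replicate 1.

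Over the whole window there were 12 strict peaks in replicate 1 and 7 in replicate 2 (9.5 ± 3.54, SD, n = 2). The density was 10.8 and 6.30 peaks per Mb, against 17.7 and 10.6 over the 21 chromosomes. Relative to the genome it was 0.602 ± 0.0100 (SD, n = 2). The SD leaves out the counting error of 12 and 7 peaks, so it does not give the precision of the ratio. That ratio depends on where the window ends. Without widening it was 0.149, and with 200 kb of flank, which takes in more neighbouring genes, it was 1.35. The arrays themselves held 0 strict peaks in Pcdha, 0 in Pcdhb, and 2 in replicate 1 and 1 in replicate 2 in Pcdhg. Footprints numbered 53 in replicate 1 and 32 in replicate 2 (42.5 ± 14.8, SD, n = 2), of which 16 and 5 lay inside the arrays. Of the window's footprints 58.5% in replicate 1 and 50% in replicate 2 touched a strict peak, against 71.5% and 68.7% genome-wide.

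All 7 strict peaks of replicate 2 overlapped one of replicate 1, and 7 of the 12 of replicate 1 (58.3%) overlapped one of replicate 2. Genome-wide these shares were 89.1% and 53.1%. The 5 replicate 1 peaks without a strict partner had signals of 0.688 to 1.07, at the low end of the window. At the 7 shared sites the ratio of replicate 1 to replicate 2 signal ran between 1.08 and 2.26 with a median of 1.71. The genome-wide median over 25693 shared sites was 1.50, and 22805 of those sites were higher in replicate 1. The genome-wide 5th and 95th percentiles were 0.866 and 2.47, and all 7 ratios of the window lay between them. With 1 group of 2 libraries no test of a difference could be made.

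CTCF consensus matches (at most 1 mismatch, both strands) were most frequent in the alpha array, where none touched a peak. The array held 14 matches, 54.4 per Mb against 24.6 per Mb genome-wide, and 6 of them matched without a mismatch. Of the 12 alpha promoters 9 held a match, each 462 to 584 bases downstream of the start and inside that gene's coding exon. All 6 matches without a mismatch were among these 9. They lie at like positions in genes that resemble each other, so the density and the counts below do not rest on independent sites. CTCF sites in the variable exons of alpha genes are known from cells that express them. None of the 14 touched a peak, a footprint or an FDR-listed base in either library. Genome-wide, 43.8% of the matches without a mismatch touched a strict peak in replicate 1 and 29.3% in replicate 2. Over the window 0 of 8 did, but 6 of these 8 were the alpha ones. Another of the 8, chr18:37883726-37883739 inside Diaph1, lay just past the edge of the strongest intronic peak. It overlapped a footprint in both libraries. With 1 mismatch allowed, 4 of the 41 matches of the window (9.76%) touched a strict peak in replicate 1 and 1 (2.44%) in replicate 2, against 13.4% and 8.58% genome-wide. The match in strict peaks of both libraries was in the Diaph1 peak 10.3 kb past Pcdhg, where it overlapped a footprint in each library.

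**Figure D3:**
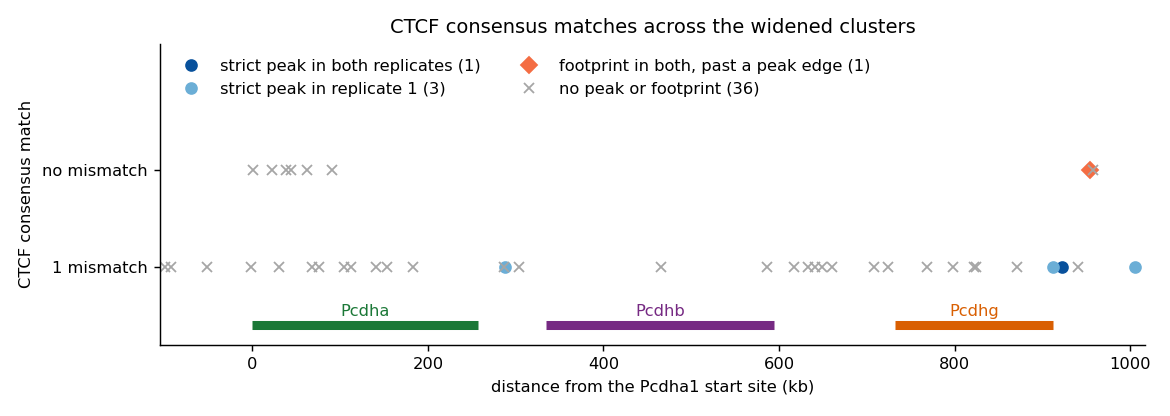
CTCF consensus matches by distance from the Pcdha1 start site in kb (x axis) and by mismatch (y axis), with the arrays as bars. Crosses are the 36 matches that touch no peak or footprint, and these include all 14 in Pcdha. The other 5 matches lie between Pcdha and Pcdhb, at the end of Pcdhg, in Diaph1 and just upstream of its start.

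Scaled to their C and G content, the members' promoters as a group were close to all genes in CpG. The number of CpG sites per promoter was not compared. The median CpG observed over expected ratio was 0.48 in members and 0.47 in all protein-coding genes. It differed by array: 0.64 in Pcdha, 0.33 in Pcdhb and 0.51 in Pcdhg. G+C content was lower, with a median of 42.9% in members and 51.2% in all genes. A GC box was present in 25 members (43.9%), against 66.3% of all genes, and in 13 of the 14 Pcdha array promoters but 3 of the 22 Pcdhb promoters. CTCF matches were present in 10 members (17.5%), against 8.66% of all genes. Of these 9 were in Pcdha, 0 in Pcdhb and 1 in Pcdhg. A consensus search can miss sites, so a promoter without a match is not shown to lack a CTCF site. The REST element, bound by a repressor of neuronal genes, was found at no member promoter, against 0.670% of all genes. Its 2 matches in the window were in Pcdhb and touched no peak.

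Array members resemble each other, which can leave reads unplaced. The share of 32-base words at the promoter that occur once in the genome had a median of 93.9% over the members and was lowest at Pcdha7, 73.7%. The medians were 88.9% in Pcdha, 99.6% in Pcdhb and 97.7% in Pcdhg. The part of read placement in the empty stretches was not tested. Reads of the CAST allele were read against the mm10 reference, and the effect of that was not tested.

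Lists of genes that act on protocadherin promoters or proteins were set beside the members. All 13 regulators had a strict promoter peak in both libraries, against 51.1% of all protein-coding genes, with median signals of 10.9 in replicate 1 and 6.74 in replicate 2. The highest were Zfp143 (26.0 and 17.5), a promoter factor that works with CTCF, and the cohesin subunit gene Stag1 (27.2 and 15.9). The promoter peak of Ctcf itself had 9.93 and 5.38, and it also lay within 1000 bases of a start of Agrp. Of 11 silencing genes 10 (90.9%) had one in both libraries, with medians of 10.9 and 6.56. The highest were Uhrf1 (17.7 and 10.7) and Dnmt1 (14.0 and 7.72), which maintain DNA methylation, and Smchd1 had 14.1 and 6.51. Of 18 genes for protocadherin processing and signalling 15 (83.3%) had one, with medians of 5.89 and 3.29, highest at the sheddase Adam10 (25.4 and 14.0) and at Ctnnb1 (16.5 and 10.4), which encodes beta-catenin. Over all 21938 genes the medians were 1.29 and 0.838, with genes lacking a peak set to 0. Over the 57 members both medians were 0.

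The unclustered protocadherins, which lie alone in the genome, had a strict promoter peak in both libraries at 2 of 12 genes. These were Pcdh17 (2.41 and 1.11) and Pcdh1 (1.55 and 1.36), and the larger lists held 4. Other gene arrays also had few promoter peaks: 1 of 1135 olfactory receptor genes (Olfr373, 1.74 and 1.06) and 3 of 39 Hox genes, highest at Hoxa7 (2.90 and 2.28) and Hoxa4 (2.96 and 2.11). Median signals of these 3 lists were 0 in each library. Differences between the lists were not tested.

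**Figure D4:**
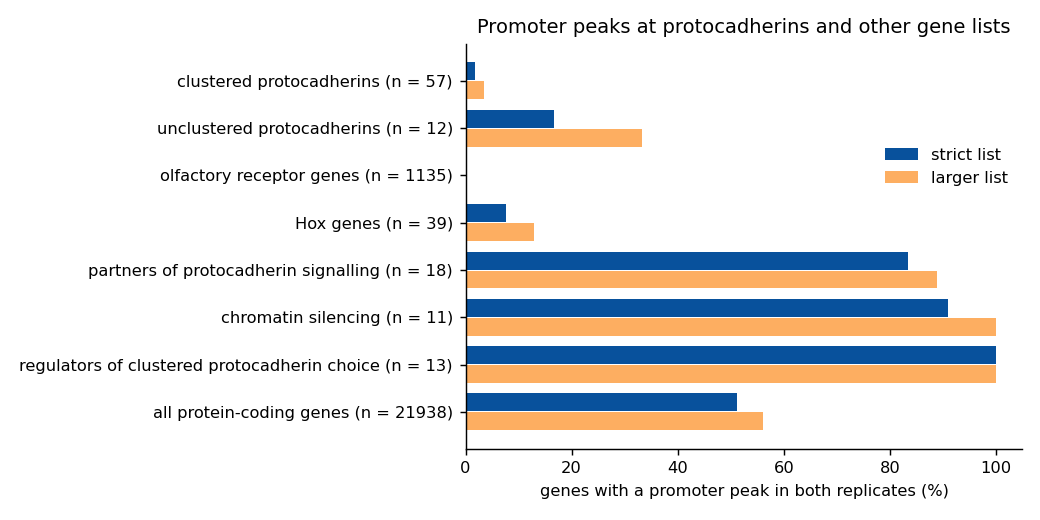
Share of genes with a promoter peak in both replicates (x axis, %) in each gene list (y axis, n genes), by the strict and the larger peak lists. Clustered protocadherins stand at 1.75% and 3.51%, against 51.1% and 56.1% of all protein-coding genes.

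The tissue label was checked on marker genes. A strict promoter peak in both libraries was present at 5 of 6 B cell markers (83.3%), 4 of 5 red cell markers (80%), 2 of 5 T cell markers (40%) and 3 of 5 stromal and endothelial markers (60%), against 51.1% of all protein-coding genes. The T cell and stromal shares lie near that of all genes and say nothing about those cells. The B cell and red cell shares rest on only 6 and 5 genes and were not tested against that of all genes. They do not settle the label. The leukocyte marker Ptprc had none. Of 12 neuronal markers 2 did (Syn1 with 2.01 and 1.14, Rbfox3 with 1.03 and 0.805), and strict signals over that list ranged between 0 and 2.01. The part of nerve cells of the spleen in the Pcdhgc3 peak was not tested. Replicate 1 had 48286 strict peaks and replicate 2 had 28837.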

How the data were processed

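The files were made by the authors on mm10, per the labels, with 1 library per file and replicates not pooled. Names of an aligner, peak caller or footprint caller were not given in the sources used here. Peak lists deposited by the authors carry 1 signal value per peak, used as the authors' own and of unstated scale. The false discovery rates deposited by the authors, a p-value type of unit, list bases under 0.05. The score in the footprint lists deposited by the authors is 1 constant and was not used. The depth of each library is unknown, so values carry no counting interval, and 2 libraries limit the precision.

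The shorter peak list of each library was the main (strict) one. A promoter peak reached within 1000 bases of an annotated start by at least 1 base. Named were members with a strict peak, the 2 highest larger-list members of each array, the C-type members, neighbouring genes with a peak, the strongest peaks, and the 2 highest genes of each list. Pcdhgb4, Pcdhga12, Pcdhgb7, Ctcf, Smchd1 and the marker genes were named after their values were seen. Members and lists were chosen with earlier results of these data known. Motifs and 32-base words were searched in the mm10-compatible reference, and the searches were tested on simulated data. Alternatives covered window size, peak list, peak number, overlap and each library alone. Python 3.11.15, numpy 2.4.6, pandas 2.3.3 and numba 0.67.0 were used. Comparisons rest on counts beside all protein-coding genes or the genome, without a test. The glial marker list is not reported here.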

Additional observations from a re-analysis of the deposited data

How the results depend on the processing

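The count of 1 member with a promoter peak in both replicates was the same under 8 of 9 alternatives and was 2 with the larger peak lists. It was 1 without replicate 1 and 1 without replicate 2. The count of all genes (11220) stayed within 1.5 times, between 9438 and 12447. Strict peaks in the window averaged 9.5, and 1.5 without widening, 6 with 50 kb, 25 with 200 kb and 16.5 with the larger lists. Leaving out 1 library gave 7 without replicate 1 and 12 without replicate 2. Density relative to the genome was 0.602, and 0.149 without widening, 0.426 with 50 kb, 1.35 with 200 kb, 0.706 with the larger lists and 0.553 with equal numbers of strongest peaks. It was 0.595 without replicate 1 and 0.609 without replicate 2. Footprints averaged 42.5, and 10.5 without widening, 109 with 200 kb and 23.5 when held to strict peaks. They numbered 32 without replicate 1 and 53 without replicate 2. The share of replicate 2 peaks that overlap replicate 1 was 100% in every alternative tried. It rests on 7 peaks, and without widening on 1, so these alternatives had little room to differ. The share of the window's strict peaks with a CTCF match wholly inside them was 19.6%, mean of the replicates. Over the 21 chromosomes this share was near that, 17.9% in replicate 1 and 19.1% in replicate 2. In the window the share was 0% without a mismatch and 11.3% with the larger lists. It was 14.3% without replicate 1 and 25% without replicate 2. The causes of these shifts were not tested, beyond the flanks taken in or left out. No paired analysis was possible because there is 1 group. Unknown depth limits statements on closed promoters to these libraries: a promoter without a listed base was not detectably open, which is not absence.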
